A study of Mus musculus with 12 samples.

Results

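The mitotic genes described here are 56 genes whose products carry a cell through mitosis and cytokinesis, picked by symbol from a fixed list out of 24391 gene symbols in the count tables. All 56 were present, and all passed the filter on low counts, which left 15958 genes for testing. RNA had been sequenced from the palatal shelves of C57BL/6 mouse embryos at E13.5, cut into an anterior and a posterior part. The 4 groups of 3 libraries were control anterior palate, tamoxifen-treated anterior palate, control posterior palate and tamoxifen-treated posterior palate. Tamoxifen, a drug that binds oestrogen receptors, is linked to cleft palate in the study's title. Dose, route and timing of tamoxifen, the handling of the controls, and whether a library came from 1 embryo or a pool are not stated in the labels. No genetic modification is named for any group. The p-values therefore reflect only how far these libraries scatter, which may be technical.

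Entry into mitosis is driven by the kinase Cdk1 with its cyclins, and by the Aurora and Polo kinases. Condensin compacts the chromosomes, kinetochores attach them to a spindle built by motor and microtubule-binding proteins, and a checkpoint holds back the anaphase-promoting complex until all are attached. Most of these genes are transcribed in G2 and M phase and are low in resting cells, so in whole tissue their level follows the share of dividing cells as well as the RNA per cell. In bulk libraries such as these, fewer cells of a type and less RNA per cell cannot be told apart. The palatal mesenchyme is a proliferating tissue while the shelves grow.

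Many genes of this kind share promoter elements that the choice of members did not use. CCAAT boxes are bound by NF-Y, and the cell cycle homology region, TTTGAA, is bound by the MuvB complex, which acts with B-Myb and Foxm1 in G2. RefSeq promoter sequences (build GRCm38.p6, 250 bases before to 50 after the start) could be matched to 47 of the 56 genes. Searched on both strands, CCAAT, which reads ATTGG on the other strand, occurred in 34 of the 47 (72.3%). TTTGAA, which reads TTCAAA there, occurred in 36 (76.6%). Among 11879 matched genes that passed the filter the shares were 42.1% and 14.2%, and over all 32851 promoters in the table they were 37.4% and 17.9%. Both elements occurred together in 30 of the 47 mitotic genes (63.8%), against 5.78% of the matched genes that passed the filter and 6.95% of all promoters. TTCGAA occurred in 3 of the 47, TTTGGCGC (GCGCCAAA) in 3 and TTTCCCGC (GCGGGAAA) in 1, and in 1.8%, 0.585% and 1.24% of all 27025 gene symbols with a promoter. Genes are counted here once, with a match in any of their promoters, whereas shares of all promoters count each promoter. The letters alone were matched, and a CCAAT and a TTTGAA match may overlap by 1 base.

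The 250 bases upstream of 4 genes are shown because their transcripts moved in opposite directions under tamoxifen, as counted, although each promoter held both elements. Ccnb2 and Cdk1, a B-type cyclin and its kinase, fell in both parts of the palate. Kif11, a spindle motor, rose in both parts, and Top2a, the topoisomerase that untangles sister chromatids, rose anteriorly. With the dependence on transcript length and GC content removed, Ccnb2 and Cdk1 were still lower in both parts and Kif11 still higher anteriorly. Kif11 then had a posterior log2 fold change of 0.04 (adjusted p = 0.71), and Top2a had -0.07 anteriorly (0.31) and was lower posteriorly (-0.22, adjusted p = 0.0079). Ccnb2 lies at chr9:70421555-70421804 on the minus strand, Cdk1 at chr10:69352913-69353162 on the minus strand, Kif11 at chr19:37376132-37376381 on the plus strand and Top2a at chr11:99024190-99024439 on the minus strand. Each run reads 5′ to 3′ towards the start, with CCAAT and TTTGAA, in either orientation, in capitals.
Ccnb2: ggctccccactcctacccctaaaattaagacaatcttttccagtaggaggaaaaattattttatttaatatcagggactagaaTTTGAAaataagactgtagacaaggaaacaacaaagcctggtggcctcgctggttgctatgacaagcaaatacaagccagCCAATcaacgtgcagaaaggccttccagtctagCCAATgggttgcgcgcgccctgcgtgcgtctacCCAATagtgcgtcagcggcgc
Cdk1: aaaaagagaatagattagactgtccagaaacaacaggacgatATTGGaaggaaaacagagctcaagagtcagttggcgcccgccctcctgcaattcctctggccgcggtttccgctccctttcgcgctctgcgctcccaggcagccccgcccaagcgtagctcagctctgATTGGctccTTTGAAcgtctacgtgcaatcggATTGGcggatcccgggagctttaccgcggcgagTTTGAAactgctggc
Kif11: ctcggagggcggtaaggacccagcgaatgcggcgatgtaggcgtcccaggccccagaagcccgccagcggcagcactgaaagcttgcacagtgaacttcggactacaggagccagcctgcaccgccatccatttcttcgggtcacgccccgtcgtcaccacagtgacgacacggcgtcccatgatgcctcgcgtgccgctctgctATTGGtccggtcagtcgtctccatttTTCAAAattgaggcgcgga
Top2a: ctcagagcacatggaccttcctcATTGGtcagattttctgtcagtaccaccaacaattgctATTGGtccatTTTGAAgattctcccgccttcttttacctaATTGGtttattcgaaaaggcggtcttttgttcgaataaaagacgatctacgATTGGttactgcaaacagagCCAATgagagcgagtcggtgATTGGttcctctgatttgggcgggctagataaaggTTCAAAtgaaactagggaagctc

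Upstream of the start, Ccnb2 and Cdk1 each held 3 CCAAT boxes, Kif11 held 1 and Top2a held 6. Across the genes described below, both elements occurred in 13 of the 20 matched promoters of genes that rose in the anterior palate (65.0%). The same held for 9 of the 12 that fell (75.0%) and for 8 of the 15 that were not called (53.3%). Pairs of elements were thus present on all sides of the tamoxifen response.

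Library totals ran from 39384932 to 73017438 counts, and the 56 genes took 0.45 to 0.576% of them. Levels are given as CPM, counts scaled to library size with TMM factors, and a call is an adjusted p under 0.05 (Benjamini-Hochberg, over all genes tested) in the quasi-likelihood test of edgeR. Shox2, a gene of the anterior shelf, was at 304 to 579 CPM in the anterior and 12.7 to 22.9 CPM in the posterior libraries. Meox2, a gene of the posterior shelf, was at 5.34 to 9.77 and 121 to 142 CPM, so the libraries separated as their regional labels say. Prrx1, a gene of limb and craniofacial mesenchyme, stood at 386 CPM or more in every library. Epithelial, endothelial, muscle, cartilage and blood cell markers were also present, and their levels are given beside the comparisons.

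All 56 genes were well expressed, with a lowest value of 9.72 CPM in any library. Mean levels over the 12 libraries were divided by the length of the longest annotated transcript. They ran from 1.96 CPM per kb for Kif18a, a kinesin that restrains chromosome oscillation, to 84.0 for Cdc20, the activator of the anaphase-promoting complex. Top2a followed at 82.7 CPM per kb. By this length the leaders of the other roles were the entry kinase Plk1 at 49.2 and the passenger scaffold Incenp at 39.5 CPM per kb. The spindle assembly factor Tpx2 led at 36.4, the kinetochore subunit Spc24 at 26.9 and the cytokinetic kinesin Kif20a at 24.0 CPM per kb. The order depends on the transcript taken. Cdk1, Birc5 and Cenpa have longest transcripts of 4375, 3334 and 3806 bases. Their shortest transcripts tagged as principal have 1253, 947 and 1466 bases, so the leader of a role can change with that choice. Replicates lay close together: the median coefficient of variation over 3 libraries was 4.64 to 6.21% in the 4 groups.

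The anterior comparison asked how mitotic genes differ between tamoxifen-treated and control anterior palate. They did not move as a block. Of the 56, 22 rose, 13 fell and 21 were not called, where 25.6% of all genes tested were called higher and 24.0% lower (49.7% either way). As counted, kinesins, spindle and cytokinesis genes and chromosome genes supplied most of the rises, and mitotic entry, passenger and anaphase genes most of the falls. The median log2 fold change of the 56 was 0.11, against -0.02 over all genes tested. The 3 treated and 3 control values did not overlap for 42 of the 56 (75.0%), against 56.5% of all genes tested. With the dependence on length and GC content removed, 16.1% of all genes were called higher and 16.5% lower. Kinesins then had 1 higher and 1 lower, spindle and cytokinesis genes 3 and 2, and chromosome genes 2 and 1. Entry genes had 1 and 3, checkpoint and anaphase genes 1 and 2, passenger genes 2 lower and kinetochore genes 3 lower. The median of kinesins went from 0.37 to -0.08 and that of entry genes from -0.20 to -0.09.

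Among chromosome genes 5 of 9 rose. Smc2, the ATPase core that condensin I and II share, was at 81.2, 84.0 and 68.6 CPM in the anterior controls and at 128, 163 and 129 CPM under tamoxifen. All 3 treated values lay above all controls, and Smc2 had the largest rise of the 56 (1.8-fold, log2 fold change 0.85, SE 0.11, adjusted p = 1.2e-05). The condensin I subunit Ncapg rose 1.68-fold, from 24.5 ± 3.25 to 41.1 ± 6.62 CPM (SD, n = 3). Its partners did not pass the test: Smc4 stood at 147 ± 13.6 and 176 ± 30.1 CPM (adjusted p = 0.057), and Ncapd2 and Ncaph had adjusted p of 0.83 and 0.54. Top2a was at 385, 394 and 363 CPM in controls and 477, 547 and 493 CPM under tamoxifen. Its groups did not overlap, and it rose 1.33-fold (adjusted p = 0.00042). Mki67, which coats mitotic chromosomes and marks cycling cells, rose 1.42-fold, and Cdca2, a phosphatase partner, 1.19-fold. Cdca5, the cohesin protector sororin, fell 1.2-fold.

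Of the 9 kinesins 6 rose and 3 were not called. Kif20b, a cytokinetic kinesin, rose 1.62-fold, Kif11 1.56-fold, Kif14 1.35-fold, Kif18a 1.33-fold, Kif15 1.29-fold and the chromokinesin Kif4 1.19-fold. Kif20a, the kinesin with the highest level per kb, was at 87.4, 83.0 and 77.8 CPM in controls and 93.8, 89.6 and 91.9 CPM under tamoxifen. These values did not overlap, but the 1.11-fold difference did not pass the test (adjusted p = 0.067). Kif23, the motor of centralspindlin, had a log2 fold change of 0.02 (SE 0.07, adjusted p = 0.87).

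Of 10 spindle and cytokinesis genes 5 rose and 5 were not called. Aspm, a spindle pole protein, was at 53.9, 44.6 and 38.4 CPM in controls and 74.1, 93.0 and 68.8 CPM under tamoxifen. Every treated value was above every control, and Aspm rose 1.72-fold (SE 0.12 on the log2 scale, adjusted p = 6.6e-05). Anln, the anillin scaffold of the contractile ring, went from 49.4, 52.6 and 42.5 CPM to 82.3, 82.6 and 79.9 CPM. The groups lay far apart, and Anln had the smallest adjusted p of the 56 (1.69-fold, SE 0.09, adjusted p = 6.5e-06). Ect2, the RhoA activator of the cleavage furrow, rose 1.53-fold, Hmmr, a spindle and hyaluronan-binding protein, 1.51-fold, and the microtubule polymerase Ckap5 1.38-fold. Tpx2 was at 161, 157 and 153 CPM in controls and 168, 177 and 166 CPM under tamoxifen. Its values did not overlap, but the 1.08-fold difference was not called (adjusted p = 0.15).

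Mitotic entry genes went mostly the other way, with 2 of 9 higher and 5 lower. Cdca3, which promotes loss of the Cdk1 inhibitor Wee1, was at 77.7, 77.2 and 92.9 CPM in controls and 59.4, 52.2 and 58.7 CPM under tamoxifen. All treated values were below all controls, and this was the largest fall of the 56 (1.45-fold, log2 fold change -0.54, SE 0.08, adjusted p = 8.6e-05). The B-type cyclins moved apart. Ccnb2 was at 78.5, 84.2 and 90.2 CPM in controls and at 65.7, 62.6 and 65.3 CPM under tamoxifen, a fall of 1.31-fold without overlap (adjusted p = 0.00026). Ccnb1 rose 1.2-fold, from 92.5 ± 3.24 to 111 ± 6.68 CPM (adjusted p = 0.0052), and the A-type cyclin Ccna2 rose 1.16-fold. Cdk1 was at 106, 104 and 107 CPM in controls and 90.5, 96.1 and 89.5 CPM under tamoxifen. Its groups did not overlap and it fell 1.15-fold (adjusted p = 0.017), a call lost without tamoxifen anterior replicate 1 or replicate 3. Ccna2 lost its call without control anterior replicate 3 or tamoxifen anterior replicate 2, as did Kif18a and the checkpoint kinase Ttk. Plk1 was at 115, 119 and 126 CPM in controls and 101, 98.1 and 103 CPM under tamoxifen, again without overlap, and fell 1.2-fold (adjusted p = 0.0046). Aurka, the centrosomal Aurora kinase, fell 1.22-fold. Foxm1, a transcription factor of many G2 genes, stood at 88.4 ± 3.83 and 82.1 ± 10.5 CPM and was not called (adjusted p = 0.35).

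The chromosomal passenger complex corrects faulty attachments, and 2 of its 4 genes fell. Birc5, its survivin subunit, was at 81.0, 75.2 and 84.1 CPM in controls and 60.3, 54.7 and 56.9 CPM under tamoxifen. Cdca8, the borealin subunit, was at 90.7, 90.3 and 101 CPM in controls and 74.8, 74.3 and 72.2 CPM under tamoxifen. Neither gene had overlapping groups: Birc5 fell 1.4-fold (adjusted p = 4.4e-05) and Cdca8 1.27-fold (adjusted p = 0.00036). The kinase Aurkb stood at 78.1 ± 6.60 and 67.0 ± 8.64 CPM, with overlap (adjusted p = 0.058). Incenp was at 149, 144 and 150 CPM in controls and 136, 146 and 131 CPM under tamoxifen, also with overlap (adjusted p = 0.2).

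Among 8 checkpoint and anaphase genes, 2 rose and 3 fell. Cdc20 was at 176, 182 and 209 CPM in controls and 139, 122 and 143 CPM under tamoxifen. Ube2c, the ubiquitin-conjugating enzyme of the same complex, was at 127, 126 and 143 CPM and then 101, 95.7 and 102 CPM. Pttg1, securin, was at 38.7, 38.3 and 52.1 CPM and then 30.0, 30.2 and 32.9 CPM. None of the 3 had overlapping groups, and they fell 1.4-fold (adjusted p = 0.00029), 1.32-fold (0.00022) and 1.39-fold (0.0024) in that order. Once the dependence on length and GC content was removed, the log2 fold change of Cdc20 went from -0.49 to -0.08 (adjusted p = 0.29) and that of Ube2c from -0.40 to -0.03 (0.72). The checkpoint kinases Bub1 (1.41-fold) and Ttk (1.21-fold) rose. Espl1, separase, the protease that securin inhibits, had a log2 fold change of 0.00 (SE 0.07), and Mad2l1, the checkpoint effector, one of 0.10 (SE 0.10).

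Kinetochore genes split evenly, with 2 of 7 higher and 2 lower. Cenpa, the histone variant that marks centromeres, was at 96.1, 97.5 and 112 CPM in controls and 70.1, 77.8 and 68.3 CPM under tamoxifen. Spc24, of the microtubule-binding Ndc80 complex, was at 50.5, 50.2 and 58.9 CPM and then 43.4, 40.8 and 37.8 CPM. Both fell without overlap, Cenpa 1.41-fold (adjusted p = 6.6e-05) and Spc24 1.31-fold (adjusted p = 0.0023). Spc24 had -0.39 on the log2 scale as counted and -0.10 with the trend removed (adjusted p = 0.37). The other Ndc80 subunits Ndc80, Nuf2 and Spc25 were not called (adjusted p 0.93, 0.45 and 0.81). The large outer kinetochore proteins Cenpe and Cenpf rose 1.55-fold and 1.52-fold.

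**Figure D1:**
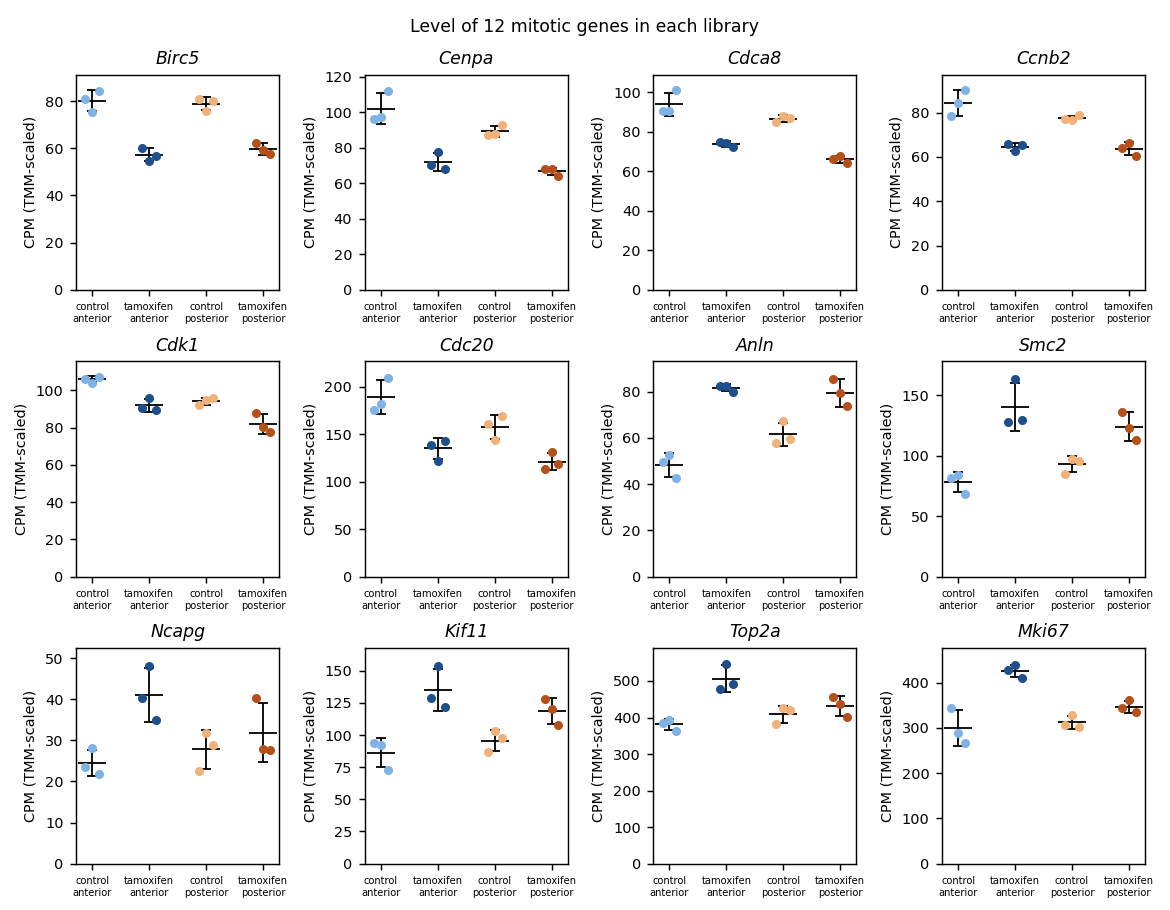
Level of 12 mitotic genes (vertical axis, CPM, from 0) in each of the 12 libraries, by group along the horizontal axis. Points are libraries, and the horizontal mark and bar are the mean and SD of 3. Birc5, Cenpa, Cdca8, Ccnb2, Cdk1 and Cdc20 lie lower under tamoxifen in both parts of the palate, Anln, Smc2 and Kif11 lie higher, and the treated Mki67 values are 411 to 439 CPM anteriorly and 334 to 362 CPM posteriorly.

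The posterior comparison asked the same question of the posterior palate. Fewer genes passed the test and falls outnumbered rises: 7 of the 56 rose, 14 fell and 35 were not called, where 17.3% of all genes tested were called higher and 11.7% lower. Those that rose were Aspm, Smc2, Anln, Hmmr, Ect2, Kif11 and Ckap5, all of which had risen anteriorly. Of the 14 that fell 12 had fallen anteriorly, and the 2 others were Incenp and Spc25. The median log2 fold change was -0.02, against 0.02 over all genes tested, and groups did not overlap for 31 of the 56 (55.4%), against 48.0% of all genes. The number of rises depended on single libraries, being 1 without control posterior replicate 1, 1 without tamoxifen posterior replicate 1 and 4 without control posterior replicate 3. The number of falls was 7 without tamoxifen posterior replicate 3 and 9 without control posterior replicate 1 or replicate 3.

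Aspm went from 45.2, 50.8 and 48.5 CPM in the posterior controls to 67.6, 63.9 and 61.5 CPM under tamoxifen. Smc2 went from 85.0, 97.6 and 95.9 CPM to 136, 123 and 113 CPM, and Anln from 57.8, 67.2 and 59.3 CPM to 85.6, 79.4 and 73.6 CPM. All 3 genes were higher in every treated library than in any control. They rose 1.34-fold (adjusted p = 0.016), 1.33-fold (0.0086) and 1.29-fold (0.0058). Anln kept its call in each of the 12 fits that left out 1 library, while Aspm, Smc2 and Ect2 lost theirs without control posterior replicate 1 or tamoxifen posterior replicate 1. Hmmr was called in 9 of the 12, Ckap5 in 7 and Kif11, whose adjusted p was 0.04, in 6.

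Cdca3 was at 74.8, 71.0 and 73.5 CPM in the posterior controls and 54.9, 57.6 and 50.5 CPM under tamoxifen. Pttg1 was at 35.2, 33.4 and 36.0 CPM and then 22.5, 27.9 and 27.4 CPM. Cenpa was at 87.0, 88.0 and 92.6 CPM and then 67.8, 67.9 and 64.3 CPM. These were the largest falls and were without overlap: 1.35-fold (adjusted p = 0.0022), 1.34-fold (0.011) and 1.34-fold (0.0013).

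Birc5 was at 80.8, 75.6 and 80.0 CPM in the posterior controls and 62.2, 59.4 and 57.5 CPM under tamoxifen. Cdca8 was at 84.9, 87.9 and 87.2 CPM and then 66.3, 67.6 and 64.3 CPM, and its partner Incenp at 144, 137 and 136 CPM and then 124, 122 and 118 CPM. The 3 passenger subunits fell without overlap, by 1.32-fold (adjusted p = 0.0011), 1.31-fold (0.0008) and 1.14-fold (0.032). Cdc20 was at 161, 144 and 169 CPM and then 113, 131 and 119 CPM, and Ube2c at 111, 106 and 117 CPM and then 92.3, 96.9 and 89.5 CPM. Both lay lower in every treated library, and fell 1.3-fold (adjusted p = 0.0057) and 1.2-fold (0.012). With the dependence on length and GC content removed, Birc5 and Cdca8 stayed lower, while Incenp, Cdc20 and Ube2c were no longer called. Cdc20 then had a log2 fold change of -0.16 (adjusted p = 0.051).

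In mitotic entry, 5 of 9 genes fell posteriorly and 4 were not called. Ccnb2 was at 77.0, 76.7 and 78.8 CPM in controls and 63.9, 66.4 and 60.6 CPM under tamoxifen, Cdk1 at 91.9, 94.8 and 95.7 CPM and then 88.0, 80.1 and 77.5 CPM. Plk1 was at 118, 115 and 109 CPM and then 92.6, 104 and 98.5 CPM. The groups of all 3 were separate, with falls of 1.22-fold (adjusted p = 0.0071), 1.15-fold (0.032) and 1.16-fold (0.026). Ccnb2 and Cdk1 stayed lower with the dependence on length and GC content removed. Plk1 then had a log2 fold change of -0.01 (adjusted p = 0.88). Ccnb1 and Ccna2, which rose anteriorly, had posterior log2 fold changes of 0.11 (adjusted p = 0.25) and -0.01 (0.94). Cdk1 and Incenp were each called in 7 and Plk1 in 8 of the 12 fits that left out 1 library, and Ccnb2, Birc5, Cdca8, Cdca3, Cenpa, Cdc20 and Pttg1 in all 12.

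Spc24, at 51.3, 49.8 and 47.6 CPM in posterior controls and 42.2, 40.9 and 34.2 CPM under tamoxifen, fell 1.27-fold without overlap (adjusted p = 0.012). Its call was lost with the dependence on length and GC content removed. Top2a was at 383, 425 and 420 CPM and then 456, 437 and 402 CPM, with overlap (adjusted p = 0.47). Tpx2 was at 151, 153 and 162 CPM and then 157, 155 and 145 CPM, and Kif20a at 86.5, 92.6 and 91.1 CPM and then 88.4, 88.5 and 85.9 CPM. These 3 genes were not called, nor were Mki67 (adjusted p = 0.19), Cenpf (0.41) and Ncapg (0.39), which had risen anteriorly.

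Between the parts of the palate, the members kept their order: the anterior and posterior log2 fold changes had a Spearman correlation of 0.94 over the 56 genes and of 0.74 over all genes tested, given as a description of genes that share libraries and a dependence on transcript length. No member was called in opposite directions. The difference between the anterior and posterior effects was tested as an interaction, and edgeR called 0 of the 56 and 0 of 15958 genes (0%). At an unadjusted p under 0.05 there were 17 members (30.4%) and 2110 genes (13.2%), and the smallest adjusted p among members was 0.22, for Cenpf. With the trend removed they were 11 members (19.6%) and 10.7% of genes. As counted, all 17 had the larger log2 fold change anteriorly. DESeq2 called 183 genes, 0 of them mitotic, and limma-voom 0. The calls in 1 part of the palate alone are therefore not shown to be specific to it.

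Marker RNA of cells other than palatal mesenchyme also differed with the treatment. The endothelial markers (Pecam1, Cdh5, Kdr, Tek and Emcn) rose for 4 of 5 in each part, and their sum went from 313 to 343 CPM to 388 to 421 CPM anteriorly and from 350 to 382 CPM to 444 to 466 CPM posteriorly. The leukocyte markers rose for 3 of 6 anteriorly and 2 of 6 posteriorly, with sums of 41.4 to 48.9 against 46.3 to 65.4 CPM and of 46.3 to 48.4 against 50.3 to 65.2 CPM. Epithelial sums overlapped anteriorly (896 to 1140 against 856 to 1080 CPM) and were 506 to 563 against 562 to 736 CPM posteriorly. Of 7 muscle markers 3 fell anteriorly and 2 rose posteriorly. Muscle sums were 7.49 to 25.9 against 5.59 to 8.97 CPM anteriorly and 621 to 709 against 781 to 1060 CPM posteriorly. Nerve sums were 105 to 119 against 122 to 130 CPM anteriorly and 100 to 108 against 119 to 151 CPM posteriorly, without overlap in either part. The 6 nerve markers did not move together anteriorly: 2 rose, 1 fell and the median log2 fold change was -0.19. Posteriorly 3 of them rose and all 6 had a positive log2 fold change. Erythroid sums were 845 to 1240 against 602 to 971 CPM and 788 to 928 against 703 to 755 CPM. Cartilage sums were 498 to 560 against 407 to 505 CPM and 2060 to 2270 against 1460 to 2100 CPM. All these marker values are as counted. With the dependence on length and GC content removed, 3 endothelial markers were higher and 1 lower anteriorly, and 3 were higher posteriorly. All 8 epithelial markers then had a positive log2 fold change in each part, against 3 anteriorly and 6 posteriorly as counted. Of these 8, 1 was called higher anteriorly and 2 posteriorly. The part of these cells in the mitotic results was not tested.

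The members' changes followed transcript length and GC content. Length here is that of the longest annotated transcript of a gene (GENCODE M21), and the 56 ran from 1531 bases for Ccnb2 to 11130 for Cenpf. The Spearman correlation of log2 fold change with length over the 56 was 0.68 in each part of the palate, and over 15837 genes it was 0.54 anteriorly and 0.48 posteriorly. With GC content it was -0.69 over the 56 in each part, and -0.52 and -0.41 over all genes. Members were divided at the bounds that cut all tested genes into 3 equal classes by length, which gave 12 short, 22 middle and 22 long ones. In the anterior palate 1 of the 12 short members rose and 9 fell (median log2 fold change -0.34), 7 of the 22 middle ones rose and 3 fell (0.12), and 14 of the 22 long ones rose and 1 fell (0.41). The trend thus ran through all genes, and its source was not tested. Medians of all genes in these classes were -0.30, -0.02 and 0.36. Of 5279 short genes 193 rose and 2141 fell, of 5284 middle ones 1029 and 1211, and of 5274 long ones 2849 and 452. Posteriorly 9 short members fell, 2 middle ones rose and 4 fell, and 5 long ones rose and 1 fell. Their medians were -0.27, -0.02 and 0.09, against -0.17, 0.01 and 0.24 for all genes of these classes. Among all short genes 106 rose and 1122 fell posteriorly, among middle ones 555 and 536, and among long ones 2091 and 187.

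**Figure D2:**
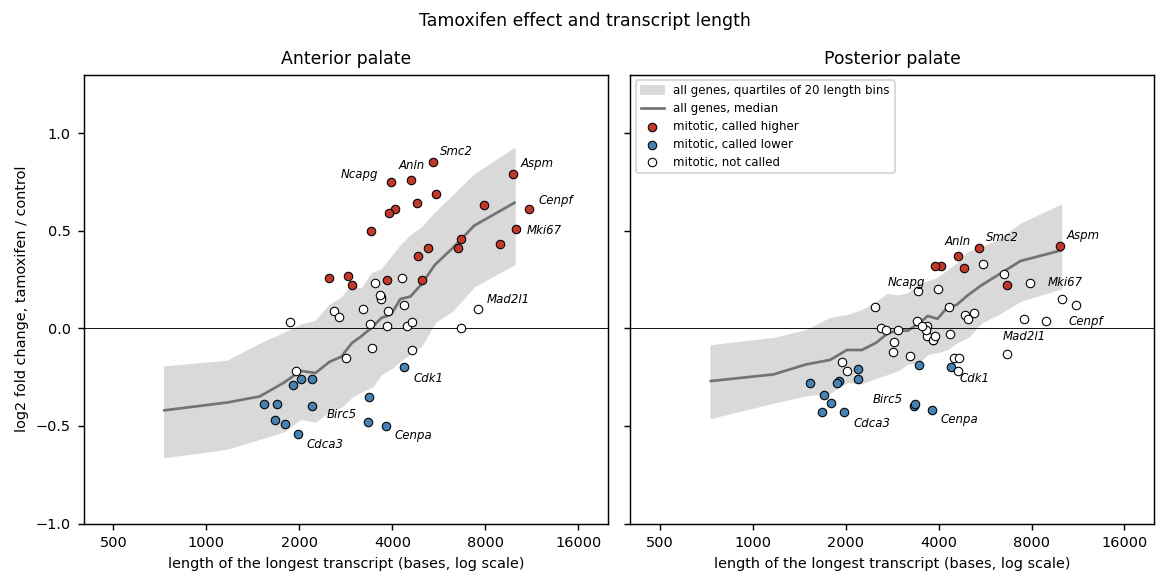
Log2 fold change under tamoxifen (vertical axis) against the length of the longest transcript (horizontal axis, bases, log scale) for the 56 mitotic genes, in the anterior and posterior palate. The grey line and band are the median and quartiles of all genes in 20 bins of length. The members climb with the band, and Birc5, Cenpa and Cdk1 lie below it while Smc2, Anln and Ncapg lie above it anteriorly.

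With the dependence on length and GC content removed from each library, falls outnumbered rises in both parts of the palate. Posteriorly they had already done so as counted. Anteriorly the balance turned with both terms removed, whereas with length alone removed rises still outnumbered falls. Anteriorly 8 members were higher and 14 lower, where 16.1% of all genes were called higher and 16.5% lower (32.6% either way). Posteriorly edgeR called 0 members higher (1 at an unadjusted p under 0.05) and 22 lower (31 at an unadjusted p under 0.05), where 7.79% of all genes were called higher and 10.2% lower (18.0% either way). The median log2 fold change of the 56 became -0.07 anteriorly and -0.15 posteriorly, against 0.01 and 0.00 over all genes, and its correlation with length -0.06 and -0.09. Posteriorly 14.3% of the members had a positive log2 fold change. The 22 posterior falls became 14 without control posterior replicate 3 or tamoxifen posterior replicate 3, and 27 without tamoxifen anterior replicate 2. Other tools and scalings were not combined with the removal.

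Which length is used matters for genes with a long alternative transcript. With the shortest transcript tagged as principal in place of the longest, an alternative chosen after seeing the data, 3 members were higher and 17 lower anteriorly (13.9% and 15.8% of all genes, 29.6% either way). Posteriorly 0 were higher (0 at an unadjusted p under 0.05) and 29 lower (7.50% and 9.55% of all genes). The log2 fold change of Mad2l1 was 0.10 anteriorly as counted, -0.60 with the trend removed at 7557 bases and -0.06 at 1725 bases. Birc5 has 3334 or 947 bases, and its anterior log2 fold change was -0.48 as counted, -0.58 with the longer and -0.27 with the shorter transcript. Cdk1, with 4375 or 1253 bases, had -0.20, -0.46 and -0.17.

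A small set of calls held in all 3 fits. Birc5, Cdca3, Cdca8, Cenpa, Ccnb2 and Cdk1 were lower in both parts of the palate as counted and after either removal. The share of all genes called the same way in all 3 fits was not counted, for falls or for rises. Single fits called 15.8 to 24.0% of all genes lower anteriorly and 9.55 to 11.7% posteriorly. Spc25 was lower in all 3 fits in the posterior palate, though as counted its call (adjusted p = 0.04) was kept in 7 of the 12 fits that left out 1 library. Pttg1 was lower in all 3 anteriorly, and posteriorly as counted and at its longest transcript, but not at its principal one (log2 fold change -0.32, adjusted p = 0.084). Aurka, Cdc20 and Spc24 posteriorly, and Aurka and Ube2c anteriorly, were lower as counted and at the principal transcript but not at the longest. In the posterior palate with the trend removed at the longest transcript, Birc5, Cdca3, Cdca8, Cenpa and Cdk1 kept their calls without any 1 library. Ccnb2 lost its call there without control posterior replicate 1 or 3 or tamoxifen posterior replicate 1 or 3.

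Anln, Smc2 and Ncapg were higher in the anterior palate in all 3 fits, with log2 fold changes of 0.40, 0.31 and 0.42 once the trend at the longest transcript was removed. Posteriorly, with the same trend removed, all 3 were uncalled (log2 fold changes 0.14, 0.09 and 0.01, adjusted p 0.10, 0.25 and 0.97). Bub1, Ccnb1, Kif11, Ect2 and Hmmr kept their anterior rise at the longest but not at the principal transcript. Mki67, Kif14 and Ckap5, with transcripts of 10061, 8943 and 6665 bases, were called higher anteriorly as counted and lower after removal of both terms. Their log2 fold changes went from 0.51 to -0.17 (adjusted p = 0.028), from 0.43 to -0.21 (0.020) and from 0.46 to -0.14 (0.048). Ckap5 kept that lower call in 2 of the 12 fits that left out 1 library, Mki67 in 8 and Kif14 in 10. With length alone removed, Mki67 had -0.10 (adjusted p = 0.24) and Kif14 -0.13 (0.16), and Ckap5 did not turn sign. Cenpf and Aspm, also among the longest members, went from 0.61 to -0.17 (adjusted p = 0.054) and from 0.79 to 0.06 (0.60).

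**Figure D3:**
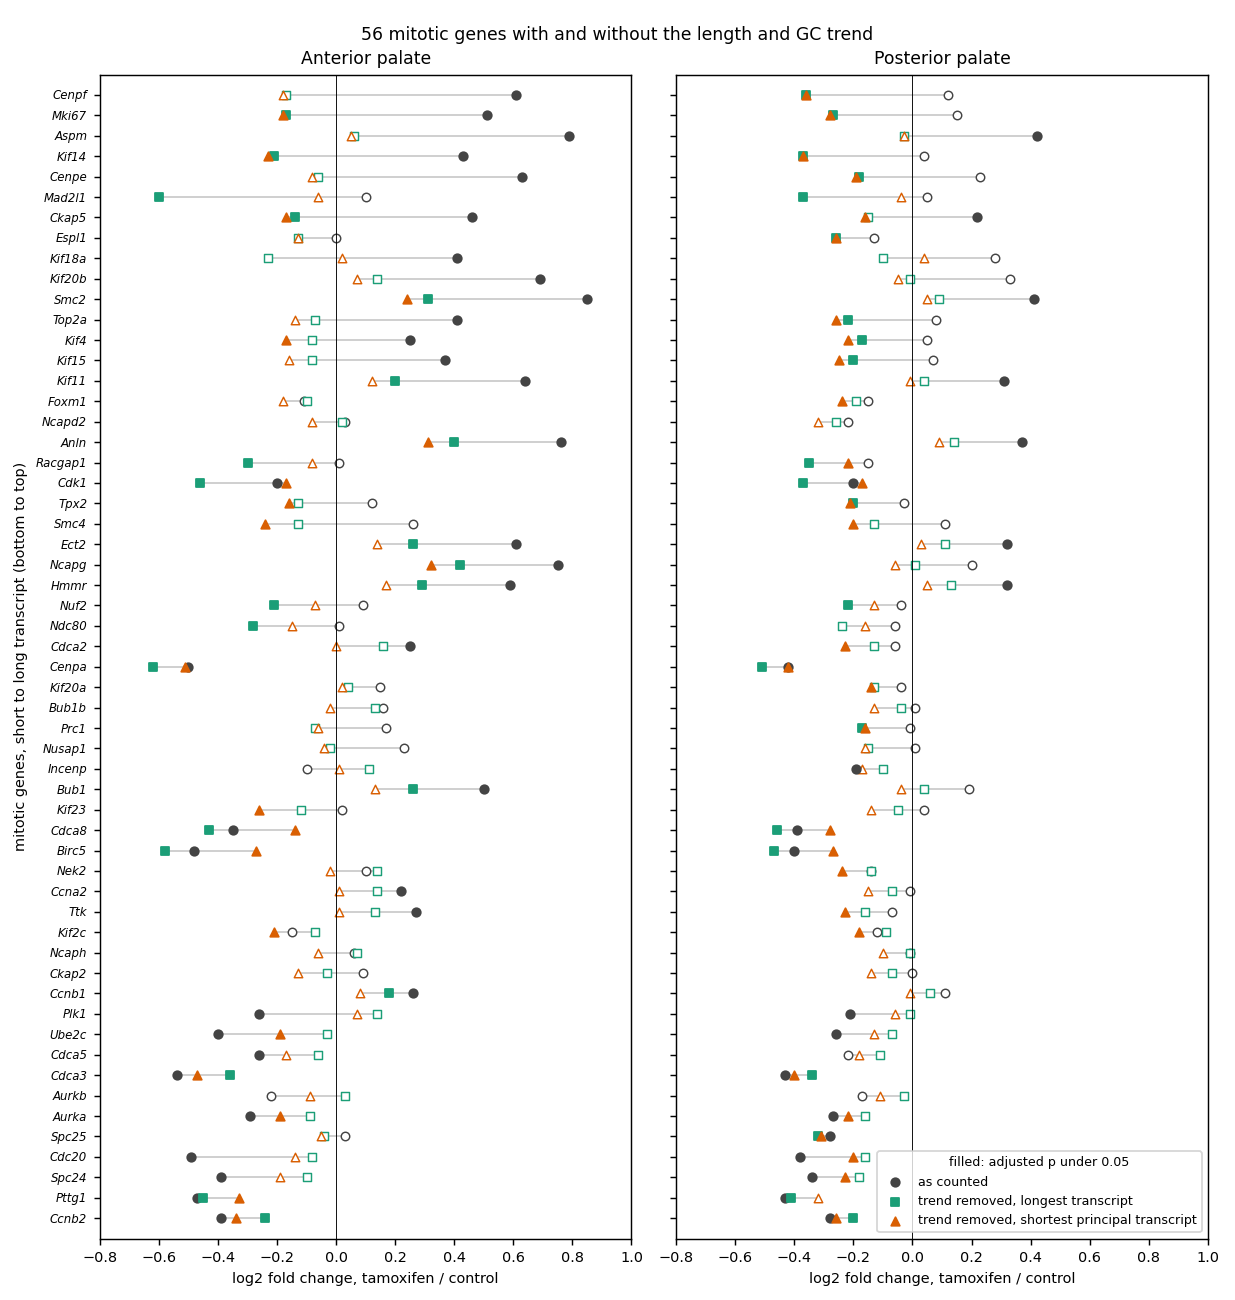
Log2 fold change under tamoxifen (horizontal axis) of the 56 mitotic genes, ordered from short to long transcript upwards, as counted and with the length and GC trend removed at the longest or the shortest principal transcript. Filled symbols passed an adjusted p under 0.05. The long members at the top move left when the trend is removed, and Birc5, Cdca3, Cdca8, Cenpa, Ccnb2 and Cdk1 stay filled and left of 0 in both parts.

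The same pattern stood in single libraries. As counted, the mean of log2(CPM + 1) over the 12 short members, set against its mean over the 12 libraries, was 0.14 to 0.31 in anterior controls and -0.13 to -0.05 under anterior tamoxifen. For the 22 long members it was -0.24 to -0.08 and 0.14 to 0.33, the reverse order. Posteriorly the short members went from 0.04 to 0.09 to -0.26 to -0.14, and the long ones from -0.16 to -0.02 to -0.05 to 0.09, where the groups overlapped. With the trend removed, all 56 together were at 0.06 to 0.11 in anterior controls, 0.00 to 0.04 under anterior tamoxifen, 0.00 to 0.05 in posterior controls and -0.18 to -0.10 under posterior tamoxifen. The 3 posterior tamoxifen libraries were then the lowest of the 12.

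**Figure D4:**
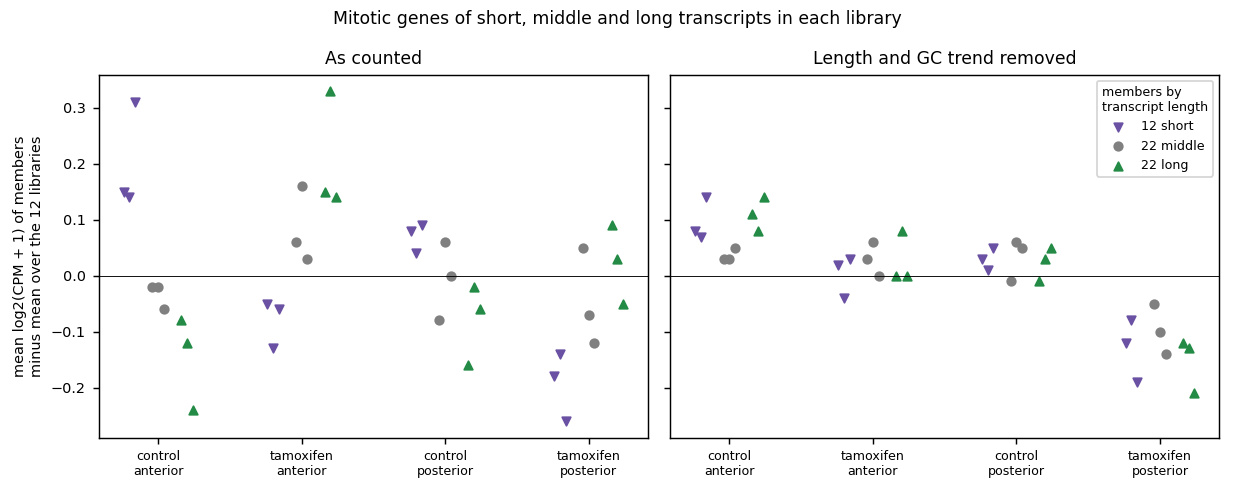
Mean log2(CPM + 1) of the short, middle and long mitotic genes in each library, relative to the mean over the 12 libraries (vertical axis), by group (horizontal axis), as counted and with the length and GC trend removed. Each symbol is 1 library. As counted, short and long members separate in opposite directions in the anterior palate, while the posterior groups of long members overlap. With the trend removed the posterior tamoxifen libraries lie lowest for all 3 classes, at -0.21 to -0.05.

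The regional comparison asked whether mitotic genes differ between anterior and posterior palate. In controls they hardly did: Cdc20 and Ube2c were higher anteriorly and Anln was lower, and 53 were not called. Over all genes tested 10.2% were called higher and 13.1% lower in the anterior palate (23.3% either way). Values of the 2 regions did not overlap for 19 members (33.9%), against 41.2% of all genes. Cdc20 was at 176, 182 and 209 CPM anteriorly and 161, 144 and 169 CPM posteriorly, without overlap (log2 fold change 0.26, SE 0.09, adjusted p = 0.045). Ube2c was 0.24 higher on the log2 scale (adjusted p = 0.019) and Anln, at 48.1 ± 5.16 and 61.5 ± 5.05 CPM, 0.35 lower (adjusted p = 0.0078). The Cdc20 call was kept in 3 of the 12 fits that left out 1 library, that of Ube2c in 8 and that of Anln in 11. The 2 higher calls became 0 without control anterior replicate 3, tamoxifen anterior replicate 1 or control posterior replicate 1 or 2. They became 1 without control anterior replicate 1 or 2, tamoxifen anterior replicate 3 or tamoxifen posterior replicate 1 or 3. The 1 lower call became 0 without control posterior replicate 2, 3 without control anterior replicate 1 and 4 without tamoxifen anterior replicate 2 or tamoxifen posterior replicate 1.

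Among controls, trend removal gave 8 members higher anteriorly and 1, Anln, lower (14.4% and 12.5% of all genes). The 8 were Cenpa, Cenpf, Cdk1, Mki67, Kif2c, Ube2c, Smc4 and Mad2l1. They numbered 4 without control posterior replicate 2, 5 without control anterior replicate 3 or control posterior replicate 1 and 12 without tamoxifen anterior replicate 2. The lower call became 3 without control posterior replicate 1 and 2 without tamoxifen anterior replicate 2 or tamoxifen posterior replicate 3.

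Under tamoxifen 7 mitotic genes were higher in the anterior than in the posterior palate and 49 were not called. Cdca2, Cenpf, Mki67, Kif14, Kif15, Nek2 and Ect2 were the 7, with log2 fold changes of 0.27 to 0.42. edgeR called 0 of the 56 lower, with 0 at an unadjusted p under 0.05 and 0 by DESeq2 and limma-voom. Over all genes tested 7.60% were called higher and 10.2% lower (17.8% either way). Cenpf was at 137, 165 and 129 CPM anteriorly and 108, 111 and 103 CPM posteriorly, without overlap (adjusted p = 0.0063), and kept its call without any 1 library. The 3 anterior and 3 posterior values did not overlap for 22 members (39.3%), all higher anteriorly, against 33.1% of all genes in either direction. The 7 became 1 without tamoxifen posterior replicate 3, 2 without tamoxifen anterior replicate 1 or 2, 3 without tamoxifen posterior replicate 2, 11 without control anterior replicate 3 and 12 without tamoxifen posterior replicate 1.

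Removal of the trend left 21 members higher anteriorly under tamoxifen (13.9% of all genes higher and 11.0% lower, 24.9% either way), and 96.4% of the 56 had a positive log2 fold change, against 58.9% of all genes. With the shortest principal transcript 18 were higher, where 14.0% of all genes were called higher and 11.2% lower (25.2% either way). The 21 became 11 without tamoxifen posterior replicate 3. All 7 genes named above were among them, as were Top2a (log2 fold change 0.18), Cdc20 (0.23), Incenp (0.29), Aspm (0.28) and Smc4 (0.24). These regional contrasts use the same libraries as the tamoxifen contrasts, so a low posterior tamoxifen value enters both. Markers of other cell types also differed between the parts. All 7 muscle markers were lower anteriorly in controls, with sums of 7.49 to 25.9 against 621 to 709 CPM, and all 6 cartilage markers, with 498 to 560 against 2060 to 2270 CPM. Myod1, which commits cells to muscle, was at 0.853 ± 0.681 CPM in anterior and 33.9 ± 4.09 CPM in posterior controls. Of the 8 epithelial markers 6 were higher anteriorly. The part of these cells in the regional mitotic values was not tested.

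Other genes of the same machinery were listed by complex, and their counts are read against the 25.6% of all genes called higher and 24.0% called lower anteriorly, and 17.3% and 11.7% posteriorly. Cohesin holds sister chromatids together, and 11 of its 13 listed genes rose anteriorly and 8 posteriorly, the remainder not being called. Pds5a, a regulator of cohesin release, rose from 60.8 ± 10.6 to 128 ± 7.14 CPM in the anterior palate (adjusted p = 2.8e-06). Nipbl, the cohesin loader, rose from 99.2 ± 10.4 to 174 ± 24.8 CPM (adjusted p = 7.8e-06). Their transcripts are 8934 and 9423 bases long, and with the trend removed 3 of the 13 were higher anteriorly. Pds5a remained higher (log2 fold change 0.36, adjusted p = 0.00019), and Nipbl had 0.06 (adjusted p = 0.44). Of 11 centriole genes 9 rose anteriorly and 6 posteriorly, among them Cep192, a scaffold of the maturing centrosome (34.2 ± 4.2 to 59.0 ± 1.65 CPM anteriorly, adjusted p = 5.1e-06). After its removal 3 of the 11 were higher anteriorly, and Cep192 had a log2 fold change of 0.12 (adjusted p = 0.099). Of the 3 genes particular to condensin II, 2 rose and 1 fell in each part. Ncapg2 rose anteriorly from 26.3 ± 3.03 to 53.4 ± 3.6 CPM, and was higher with the trend removed too (log2 fold change 0.63, adjusted p = 3.7e-06).

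Of 16 genes of the anaphase-promoting complex and its regulators 3 rose and 8 fell anteriorly, and 3 rose and 5 fell posteriorly. After removal of the trend 2 were higher and 9 lower anteriorly. The subunit Cdc27 rose 1.69-fold anteriorly (adjusted p = 2.6e-05) and remained higher after removal (log2 fold change 0.23, adjusted p = 0.0054), while Anapc1, which rose 1.52-fold, had -0.03 (adjusted p = 0.70).

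Of 29 other kinetochore genes 8 rose and 6 fell anteriorly, and 2 rose and 7 fell posteriorly. Casc5, the scaffold that recruits Bub1, had the largest anterior rise among them, from 15.1 ± 3.44 to 34.1 ± 2.08 CPM (log2 fold change 1.17, adjusted p = 6.3e-06), and 0.48 with the trend removed (adjusted p = 0.00045). Cenpt, which links the centromere to the Ndc80 complex, fell from 60.0 ± 5.93 to 35.4 ± 4.58 CPM (adjusted p = 1.5e-05). Its fall was present in both parts, with a posterior log2 fold change of -0.47, and after removal of the trend it was -0.68 anteriorly and -0.45 posteriorly. After removal of the trend 13 of the 29 were lower posteriorly and 1 was higher.

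Among 22 other entry and checkpoint genes 4 rose and 7 fell anteriorly, and 3 rose and 6 fell posteriorly. Pkmyt1, the membrane-bound kinase that inhibits Cdk1, fell from 36.1 ± 3.11 to 18.8 ± 2.49 CPM anteriorly (adjusted p = 8e-06) and from 30.6 ± 2.6 to 20.3 ± 1.97 CPM posteriorly (adjusted p = 0.0016). It was lower in both parts with the trend removed as well, with log2 fold changes of -0.55 and -0.41. Lin54, the DNA-binding subunit of MuvB, rose 1.64-fold anteriorly (adjusted p = 8.1e-05) and 1.46-fold posteriorly (adjusted p = 0.0025). Its log2 fold changes of 0.71 and 0.55 were 0.29 in each part with the trend removed (adjusted p 0.013 and 0.022). Of 32 other spindle and midbody genes 10 rose and 9 fell anteriorly, and 3 rose and 9 fell posteriorly. Troap, a spindle protein, fell posteriorly from 27.5 ± 1.26 to 18.4 ± 1.51 CPM (adjusted p = 0.00042). Haus6, an augmin subunit, rose anteriorly from 13.6 ± 2.11 to 26.5 ± 3.27 CPM (adjusted p = 1.8e-05), a log2 fold change of 0.96 that was 0.37 with the trend removed (adjusted p = 0.0018).

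Inhibitors of cyclin-dependent kinases, which hold cells out of the cycle, showed 2 falls among 5 tested genes anteriorly and 1 posteriorly. Cdkn2c fell from 25.0 ± 4.84 to 15.9 ± 1.9 CPM anteriorly (adjusted p = 0.00065), and with the trend removed its log2 fold change was -0.19 (adjusted p = 0.11). Cdkn1a, the p21 inhibitor, fell by 0.39 on the log2 scale anteriorly, from 13.1 ± 0.714 CPM in controls (adjusted p = 0.018). Posteriorly it stood at 29.5 ± 3.27 and 35.8 ± 1.7 CPM (adjusted p = 0.093), and with the trend removed it was higher there (log2 fold change 0.46, adjusted p = 0.0085).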

How the data were processed

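The authors deposited 1 table of raw read counts per gene symbol for each of the 12 libraries. Reads were processed with HISAT2 and StringTie against mm9, per the submitters' processing notes. The counting program, all versions, the annotation and the strand setting were not given in the sources used here. Without strand, reads of overlapping antisense genes cannot be told apart. Of counts from 1 to 100, 57.1 to 60.1% were even. No pair of replicates was alike within sampling noise (chi-square per degree of freedom 10.3 or more).

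Genes were filtered by group with filterByExpr, scaled by TMM and fitted with edgeR 4.0.16 (robust quasi-likelihood, R 4.3.3), with 1 mean per group over 12 libraries and 8 residual degrees of freedom. A call is a Benjamini-Hochberg adjusted p under 0.05 over 15958 genes. Values are given as mean ± SD of 3 libraries, and SE is that of the log2 fold change. An exact permutation test of 3 against 3 libraries cannot go below 0.1, so none was used. Each symbol took its length and GC content from its longest transcript in GENCODE M21 (15837 tested genes matched). Their trend was removed per library with natural splines of 4 degrees of freedom each, entered as offsets. DESeq2 1.42.0 and limma-voom 3.58.1 were alternatives, and the models were tested on simulated data. The members and gene lists were chosen with earlier results of these data known. Genes named in full were those with the 3 largest rises and falls per comparison, those called as counted and after trend removal in both parts, and the highest per kb in each role. From each other list up to 2 called genes with the smallest adjusted p were eligible.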

Additional observations from a re-analysis of the deposited data

Results flagged for a closer look

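Cenpe, the kinetochore motor that brings chromosomes to the spindle equator, had opposite regional orders in control and treated palate as counted. In controls it was at 71.0, 71.1 and 63.8 CPM anteriorly and 73.2, 79.8 and 77.5 CPM posteriorly, so every anterior value lay below every posterior one. Under tamoxifen it was at 96.0, 124 and 98.6 CPM anteriorly and 90.8, 93.1 and 87.3 CPM posteriorly, so every anterior value lay above. The difference between the regional differences was 0.40 on the log2 scale, and edgeR's interaction test did not call it (adjusted p = 0.27). With the length and GC trend removed, the control values overlapped, at 86.6, 88.3 and 95.2 CPM anteriorly and 85.7, 84.6 and 87.2 CPM posteriorly. The regional log2 fold change of Cenpe was then 0.07 in controls (adjusted p = 0.46) and 0.19 under tamoxifen (0.029). Its interaction was 0.12 (adjusted p = 0.65).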

How the results depend on the processing

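The numbers of mitotic genes called as counted moved by more than 1.5 times under these settings, and for each the cause was not tested. For the regional comparison in controls, the higher calls were 1 with a filter of CPM 5 in 3 libraries, 1 with no filter, 1 with RLE scaling, 4 with DESeq2 (2 lower), 5 with total count scaling, 6 with upper quartile scaling and 0 at an adjusted p under 0.01. For the regional comparison under tamoxifen they were 15 with DESeq2, 12 with total count scaling, 11 with upper quartile scaling and 2 at an adjusted p under 0.01. Posterior calls at that threshold were 2 higher and 6 lower.

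Removing the length and GC trend gave 8 higher anteriorly, 0 higher and 22 lower posteriorly, and 8 and 21 higher in the regional comparisons of controls and treated palate. The shortest principal transcript gave 3, 0, 29, 9 and 18 in that order. Length alone gave 14 higher anteriorly, 1 higher and 14 lower posteriorly, and 5 and 20 higher between regions. The shortest principal transcript was chosen after seeing the data, as were length alone, the block and leaving out libraries where they were applied to the trend-removed counts.

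Leaving out each library in turn gave 19 to 24 higher and 12 to 14 lower anteriorly, 1 to 8 and 7 to 16 posteriorly, 0 to 2 and 0 to 4 between control regions, 1 to 12 and 0 to 0 between treated regions, and 0 to 0 for the interaction. With the trend removed the ranges were 7 to 9 and 10 to 17, 0 to 0 and 14 to 27, 4 to 12 and 1 to 3, 11 to 23 and 0 to 0, and 0 to 0.

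Same-numbered replicates had correlations of -0.06 to 0.15 and did not always match their own number best, so the numbers were not taken to pair samples. The replicate block gave 23 higher and 14 lower anteriorly, 8 and 14 posteriorly, 3 and 1 between control regions, and 7 and 0 between treated regions. With the trend removed and the block, higher calls were 9 anteriorly, 0 posteriorly, 7 between control regions and 21 between treated regions.

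Among genes called as counted or under the alternative, log2 fold changes turned sign only under the 4 removals of a trend. Uncalled values also turned, such as Tpx2 from 0.12 to -0.13 and Prc1 from 0.17 to -0.07 anteriorly with the trend removed, and values near 0, such as Kif23 at 0.02 anteriorly, turned when 1 library was left out (-0.05 to 0.06). Anteriorly, the longest transcript, with or without the block, gave Cenpe -0.06, Cenpf -0.17, Plk1 0.14, Top2a -0.07, Mki67 -0.17, Kif14 -0.21, Kif15 -0.08, Kif18a -0.23, Kif4 -0.08, Ndc80 -0.28, Nuf2 -0.21, Racgap1 -0.30, Ckap5 -0.14 and Mad2l1 -0.60. Posteriorly it gave Cenpe -0.18 (block -0.19), Cenpf -0.36, Top2a -0.22, Mki67 -0.27, Kif14 -0.37 and Kif15 -0.20. Also posteriorly it gave Kif4 -0.17 (without the block only), Aspm -0.03, Ckap5 -0.15 (block -0.14) and Mad2l1 -0.37. Between control regions it gave Cenpf 0.24 and Mki67 0.22. The shortest principal transcript gave, anteriorly, Cdca2 0.00, Cenpe -0.08, Cenpf -0.18, Plk1 0.07, Top2a -0.14, Mki67 -0.18, Kif14 -0.23, Kif15 -0.16, Kif23 -0.26, Kif4 -0.17, Tpx2 -0.16, Ckap5 -0.17 and Smc4 -0.24. Posteriorly it gave Cenpe -0.19, Cenpf -0.36, Top2a -0.26, Mki67 -0.28, Kif11 -0.01, Kif14 -0.37, Kif15 -0.25, Kif4 -0.22, Aspm -0.03, Ckap5 -0.16 and Smc4 -0.20, and between control regions Cenpf 0.25, Mki67 0.24 and Aspm 0.21. Length alone gave Cenpf -0.03, Mki67 -0.10, Kif14 -0.13, Kif18a -0.02, Kif4 -0.01, Racgap1 -0.17 and Mad2l1 -0.41 anteriorly, Cenpf -0.29, Mki67 -0.24, Kif14 -0.32 and Ckap5 -0.06 posteriorly, and Mki67 0.21 between control regions. All members had 9.72 CPM or more in every library, and dividing the counts by 2 changed no member's call in the tamoxifen comparisons.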
